A study of Mus musculus with 2 samples.

Results

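The genes described here are 10 core and output factors of the circadian clock, *Arntl*, *Clock*, *Npas2*, *Per1*, *Per2*, *Per3*, *Cry1*, *Nr1d1*, *Dbp* and *Tef*. They were chosen by gene symbol, and all 10 were found among the 21878 symbols of the deposited count and FPKM files. Messenger RNA was measured by polyA RNA sequencing in the liver of FVB/N mice, an inbred strain, after hydrodynamic injection of c-Myc, a rapid tail vein injection that carries DNA into hepatocytes. Both groups carry the injected c-Myc, and they differ by treatment, which was none in the untreated group and TSA in the other. Each group is 1 library, so the differences have no replicate check and no test across conditions is possible. The labels give neither the promoter of the injected gene, the dose or length of treatment, the age of the mice, nor which part of the liver was taken or from how many animals. They also give no time of day for either sample, and a difference in sampling time cannot be told apart from the treatment.

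The mammalian clock is a transcriptional feedback loop. BMAL1, the product of *Arntl*, pairs with CLOCK or its relative NPAS2 and activates genes through the E-box motif, among them the *Per* and *Cry* genes, whose products then repress that activation. REV-ERB alpha, the product of *Nr1d1*, represses *Arntl* through a second motif, the ROR response element, and DBP and TEF, transcription factors of the PAR bZIP family, activate genes through the D-box. In liver the loop makes transcripts of both arms rise and fall over the day, *Arntl* against *Per* and *Dbp*, and it drives genes of drug, bile acid and energy metabolism through the PAR bZIP factors and nuclear receptors.

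The motifs that tie these genes together can be read in some of their own promoters, and the stretches below are shown because they hold the sites named above. Promoter windows of 300 bases, from 250 before to 50 after an annotated transcription start, were taken from RefSeq on GRCm38.p6 and matched 9 of the 10 genes by symbol, all but *Per2*, with 14 windows in all. Each stretch is written 5′ to 3′ on the strand of the gene, with the motif in capitals.
Per3, 2 D-boxes, chr4:151044796-151044890, minus strand: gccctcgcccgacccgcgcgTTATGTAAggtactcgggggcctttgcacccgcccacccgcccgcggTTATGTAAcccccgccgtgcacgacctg
Per1, E-box, chr11:69098763-69098808, plus strand: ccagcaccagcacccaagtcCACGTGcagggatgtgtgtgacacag
Cry1, E-box variant and E-box, chr10:85185089-85185153, minus strand: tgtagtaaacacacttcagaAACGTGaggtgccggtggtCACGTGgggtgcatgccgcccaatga
Nr1d1, E-box variant, chr11:98775380-98775425, minus strand: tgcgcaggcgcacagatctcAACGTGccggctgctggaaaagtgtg
Tef, E-box, chr15:81811256-81811301, plus strand: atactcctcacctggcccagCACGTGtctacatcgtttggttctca
Arntl, core of the ROR response element, chr7:113207531-113207557, plus strand: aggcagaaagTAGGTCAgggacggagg

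Each motif was searched on both strands. The E-box CACGTG stood in 4 of the 14 windows, those of *Per1* (166 bases before the start), *Cry1* (60 bases before it) and *Tef* (in both of its windows, 127 and 138 bases before the start), beside 7.15% of all 32851 windows. Its variant CACGTT, which reads AACGTG on the other strand, stood in 2 of the 14, those of *Cry1* (79 bases before the start) and *Nr1d1* (28 bases before it), against 4.68% of all windows. The D-box TTATGTAA stood in 1 of the 14, that of *Per3*, 205 and 158 bases before the start, and 0.938% of all windows held it. The core of the ROR response element, TAGGTCA, stood in 1 of the 14, a window of *Arntl*, 31 bases from the start (which counts as 1), in the 5′ untranslated region, against 2.61% of all windows. The windows of *Clock*, *Npas2* and *Dbp* held none of these motifs. A match is a run of letters in this window and no measure of binding in these livers.

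The libraries differ far beyond the clock. Total counts were 17281523 in the untreated and 17088227 in the TSA library, and after TMM scaling, which rests on most genes being equal, 3382 of 13027 genes tested (26.0%) were higher and 3573 (27.4%) lower with TSA. A gene was tested with at least 20 counts over both libraries, and it is called higher or lower by size alone, at a ratio of TSA over untreated of at least 2 in either direction with a 95% interval that excludes 1. Intervals follow in parentheses and hold the counting error alone. Both samples express liver genes, but in different proportion: *Alb*, the serum albumin gene, stood at 45600 counts against 1426219 with TSA, and *Afp*, the fetal alpha-fetoprotein gene, 94320 and 125. All 14 hepatocyte markers were higher with TSA, their summed level going from 11322 to 206523 CPM after TMM scaling, and none was at 0 in either library. Endothelial markers (9 of 10 higher) went from 113 to 739 CPM and erythroid markers (6 of 6 tested higher) from 70.9 to 359 CPM. Cell division genes (12 of 12 lower) went from 2059 to 28.6 CPM and fetal liver markers (6 of 7 tested lower) from 7897 to 102 CPM, with *Dlk1*, *Igf2bp1* and *Lin28b* at 0 in the TSA library. With TMM, macrophage markers differed little in sum, at 889 and 953 CPM (5 higher and 2 lower of 12). So did cholangiocyte markers at 78.8 and 76.6 CPM (3 higher and 2 lower of 6 tested) and T and NK cell markers at 8.92 and 9.04 CPM (1 higher of 4 tested). The cholangiocyte sums hide opposite differences. *Krt7* stood at 577 counts against 10 with TSA and *Epcam* at 472 against 21, while *Spp1* stood at 76 against 545. Most T and NK cell marker counts without treatment were those of *Cd4*, at 150 against 48 with TSA. Stellate cell markers went from 438 to 631 CPM (6 higher and 2 lower of 11), B cell markers from 5.08 to 12.0 CPM (4 of 5 higher) and neutrophil markers from 1.51 to 7.08 CPM (2 of 2 tested higher). These sums depend on the scaling. In raw counts macrophage markers fell from 20647 to 12123, cholangiocyte markers from 1830 to 974 and T and NK cell markers from 207 to 115. Stellate cell markers fell from 10166 to 8025 counts, while B cell markers rose from 118 to 153 and neutrophil markers from 35 to 90. The part of these shifts in the clock values was not tested, and fewer cells of a type cannot be told apart from less RNA per cell.

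*Arntl* stood apart from the other clock genes: it had fewer counts with TSA, while all 4 *Per* and *Cry* members, *Nr1d1*, both PAR bZIP factors and the partners of *Arntl* in the positive arm, *Clock* and the scarce *Npas2*, had more. With TMM scaling 8 of the 9 genes tested were called higher and 0 lower, beside 26.0% of all genes higher and 27.4% lower. With total counts, the scale of the deposited FPKM, 4 were higher (*Per2*, *Per3*, *Dbp* and *Tef*) and 1 lower (*Arntl*), beside 16.0% and 48.7% of all genes. Scaling to the median of 12 housekeeping genes, of which TMM called 2 higher and 6 lower, again called 8 higher and 0 lower, beside 46.6% and 12.2% of all genes. With TMM the 9 genes had a median log2 ratio of 1.55, and with total counts of 0.70; for all genes tested the medians were -0.11 and -0.96. Scaling moves all genes together, by 0.85 on the log2 scale between total counts and TMM, so the rank of a clock gene among all genes is free of it and is given below. The 9 genes had at least 85 counts in either library, and *Npas2* was not tested.

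**Figure D1:**
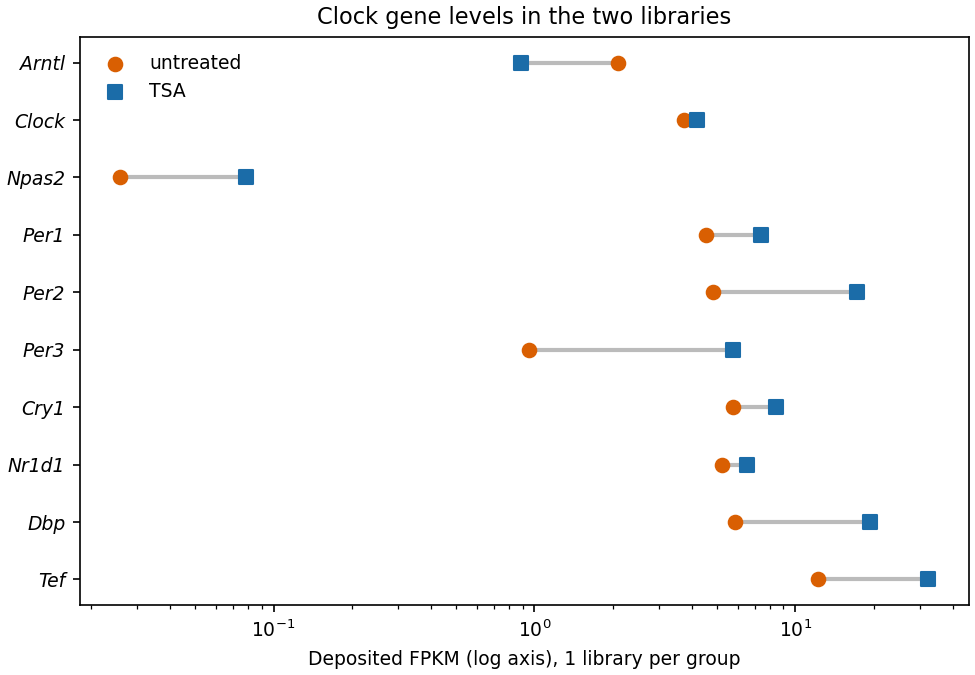
Deposited FPKM of the 10 clock genes (horizontal log axis) in the untreated (circles) and TSA (squares) libraries, 1 library per group. *Arntl* is the only gene whose TSA value lies to the left of its untreated value; *Per3*, *Per2* and *Dbp* have the longest lines, and that of *Npas2* rests on 2 and 6 counts.

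In the positive arm, *Arntl*, for BMAL1, stood at 204 counts (2.10 FPKM) in the untreated liver against 85 (0.884 FPKM) after TSA. Its ratio was 0.76 (0.583 to 0.984) with TMM, which is not called, 0.421 (0.323 to 0.545) with total counts, which is called lower, and 1.51 (1.16 to 1.96) with housekeeping scaling. Its direction therefore depends on the scaling. Its rank does not: 42.5% of the genes tested had a lower ratio, which puts *Arntl* a little below the middle of the transcriptome and below the other 8 clock genes tested. *Clock*, for the partner of BMAL1, stood at 653 counts (3.74 FPKM) against 725 (4.20 FPKM). These levels lie close together on the deposited scale, and the ratio was 2.03 (1.82 to 2.26) with TMM, just past the size rule, and 1.12 (1.01 to 1.25) with total counts; 74.2% of genes tested had a lower one. *Npas2*, which can stand in for CLOCK, stood at 2 counts against 6 with TSA, a ratio of 5.48 with an interval from 0.979 to 55.5 that does not exclude 1. Both counts are too few to read a difference, and *Clock* stood far above *Npas2* in both libraries, at 144-fold and 53.5-fold by FPKM, which is per length.

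In the negative arm, *Per3* differed most of the tested members. It stood at 183 counts (0.955 FPKM) in the untreated liver against 1095 (5.78 FPKM) after TSA, a ratio of 10.9 (9.33 to 12.8) with TMM and 6.05 with total counts. Of the genes tested 969 had a higher ratio, so that 92.6% lay below it. This is the member with 2 D-boxes in its promoter window, the motif of the PAR bZIP factors described below. Whether these sites bear on its ratio was not tested, and *Per2* had no window to search. *Per2*, a main repressor of the loop together with the CRY proteins, stood at 504 counts (4.83 FPKM) against 1778 (17.2 FPKM). Its ratio was 6.44 (5.83 to 7.12) with TMM and 3.57 with total counts, above that of 89.4% of genes. *Per1*, a repressor gene that glucocorticoids and cyclic AMP also induce, stood at 580 counts (4.55 FPKM) against 931 (7.39 FPKM). It differed less, by 2.93-fold (2.64 to 3.26) with TMM and 1.62-fold with total counts, above 81.2% of genes. *Cry1*, for a cryptochrome that holds BMAL1 and CLOCK inactive, stood at 320 counts (5.77 FPKM) against 461 (8.40 FPKM). Its ratio was 2.63 (2.27 to 3.04) with TMM and 1.46 with total counts, above 79.4% of genes. *Per1* and *Cry1* were thus called with TMM and not with total counts, whereas *Per2* and *Per3* were called with both.

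By FPKM, the *Per* genes kept their order and changed their spacing. By counts, *Per1* stood first without treatment, at 580 beside 504 for *Per2* and 183 for *Per3*. With TSA it stood last by counts, at 931 beside 1778 and 1095. In the untreated library *Per2* and *Per1* stood at like levels per length, 4.83 and 4.55 FPKM, with *Per3* at 0.955 FPKM. In the TSA library *Per2* stood first at 17.2 FPKM, 2.33-fold above *Per1*, and *Per3* had come near *Per1*, at 5.78 against 7.39 FPKM.

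*Nr1d1*, for the repressor of *Arntl*, stood at 249 counts (5.21 FPKM) in the untreated liver against 309 (6.54 FPKM) after TSA. Its ratio was 2.26 (1.91 to 2.69) with TMM, called higher, and 1.26 with total counts, not called, above that of 76.5% of genes. Of its annotated exon bases 8.55% (263 of 3077, GENCODE M21) are shared with *Thra* on the opposite strand. *Thra*, for thyroid hormone receptor alpha, stood at 469 counts against 156 with TSA, and since the strand setting of the counting is not given, reads of the shared part cannot be assigned.

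The PAR bZIP output genes differed by like amounts. *Dbp* stood at 256 counts (5.88 FPKM) in the untreated liver against 833 (19.3 FPKM) after TSA, a ratio of 5.94 (5.16 to 6.86) with TMM and 3.29 with total counts, above 88.8% of genes. *Tef*, the most abundant of the 10 genes per length in both libraries, stood at 1117 counts (12.2 FPKM) against 2926 (32.3 FPKM). Its ratio was 4.78 (4.46 to 5.13) with TMM and 2.65 with total counts, above 86.9% of genes. Both were called with either scaling. *Dbp* shares 18.0% of its annotated exon bases (539 of 2993) with *Sphk2* on the opposite strand, a sphingosine kinase gene that stood at 1043 counts against 813 with TSA. As for *Nr1d1*, reads of the shared part cannot be assigned, which limits the *Dbp* ratio and quotients. *Tef* shares 2.45% with an antisense gene model.

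**Figure D2:**
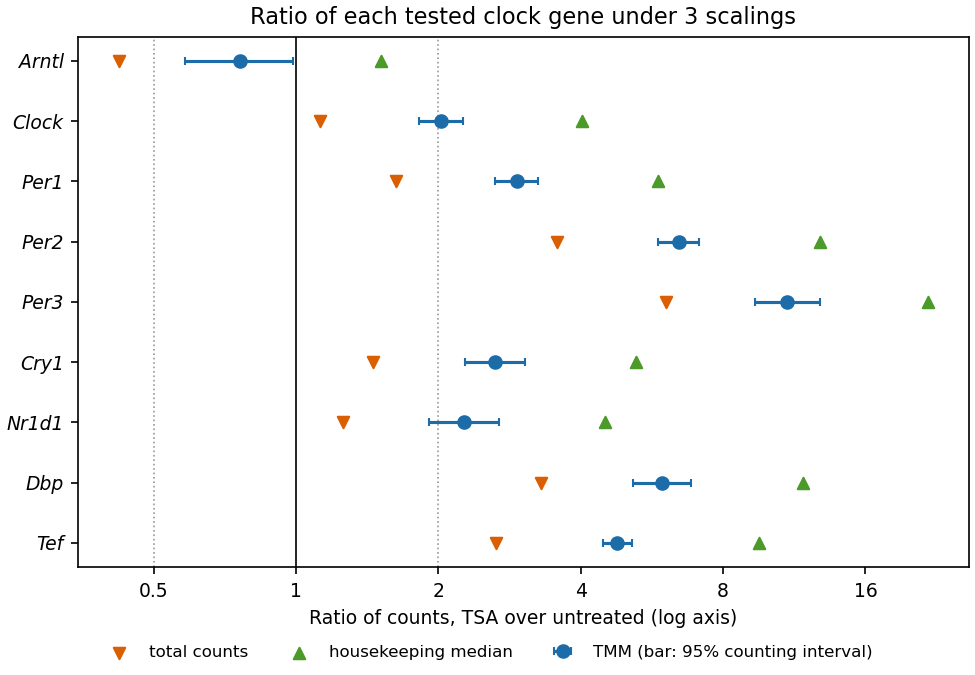
Ratio of counts, TSA over untreated (horizontal log axis), of the 9 clock genes tested, with TMM scaling (circles, bars are 95% counting intervals), total counts (downward triangles) and the median of 12 housekeeping genes (upward triangles). Dotted lines mark the 2-fold rule; *Per2*, *Per3*, *Dbp* and *Tef* lie beyond it under each of the 3 scalings, and *Arntl* lies on either side of 1.

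Quotients of 2 clock genes within the same library need no scaling between libraries, and 12 pairs were compared, of which *Arntl* with *Clock* was added after the data were seen. The quotients of *Arntl* to the other clock genes were lower with TSA, to its partner *Clock* as well as to its repressors and targets. Without treatment *Arntl* stood at 2.20-fold the FPKM of *Per3*, and with TSA *Per3* stood at 6.53-fold that of *Arntl*, so that the quotient of *Arntl* to *Per3* was 14.3-fold (10.6 to 19.6) lower. The quotient of *Arntl* to *Per2* was 8.46-fold (6.41 to 11.2) lower, that to *Dbp* 7.80-fold (5.79 to 10.6) lower and that to *Per1* 3.85-fold (2.91 to 5.13) lower. Against *Nr1d1* it was 2.97-fold (2.18 to 4.09) lower and against *Clock* 2.66-fold (2.01 to 3.55) lower, the smallest shift of the 6 pairs that hold *Arntl*. All 6 intervals exclude 1, although every one shares the same 85 *Arntl* counts of the TSA library.

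Within the arm of the repressors and outputs the genes did not move by 1 common factor. The quotient of *Per1* to *Per2* was 2.20-fold (1.90 to 2.54) lower with TSA, that of *Cry1* to *Per2* 2.45-fold (2.05 to 2.92) lower and that of *Per2* to *Per3* 1.70-fold (1.41 to 2.05) lower. The quotient of *Nr1d1* to *Dbp*, both direct targets of BMAL1 and CLOCK, was 2.62-fold (2.10 to 3.28) lower. Of the pairs compared, *Dbp* and *Tef* stayed closest. *Dbp* was at 0.482 of *Tef* by FPKM without treatment and 0.598 with TSA, a quotient 1.24-fold (1.06 to 1.46) higher. Genes that were not paired here can lie closer, as do *Per2* and *Dbp* with TMM ratios of 6.44 and 5.94. For *Clock* and *Npas2* the quotient was 2.70-fold lower with an interval from 0.481 to 27.4 that does not exclude 1.

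**Figure D3:**
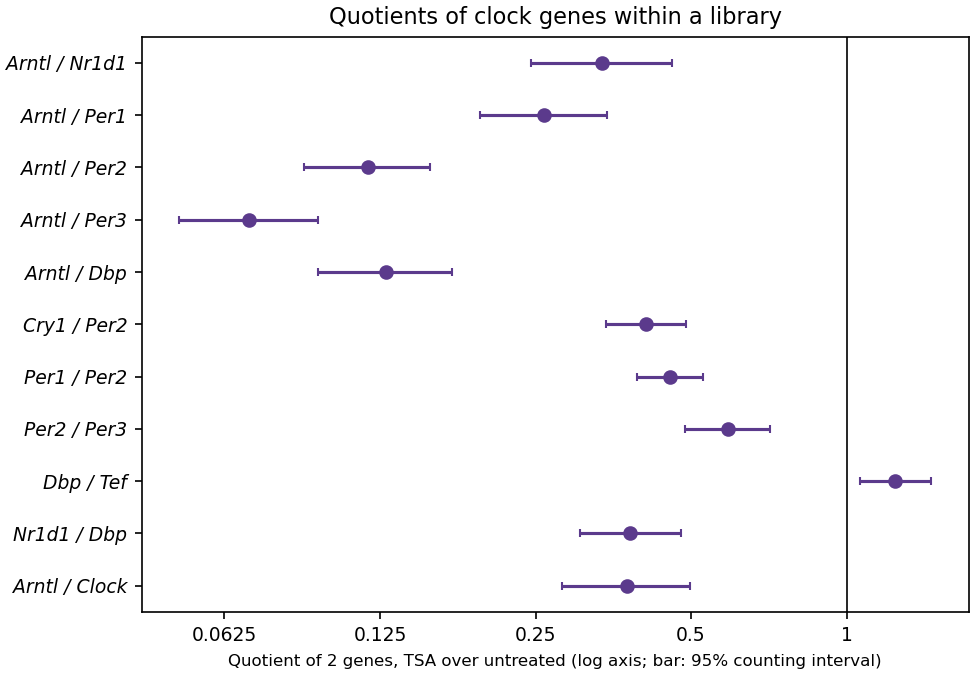
Quotient of 2 clock genes in the TSA library divided by the same quotient in the untreated library (horizontal log axis), with 95% counting intervals as bars, for 11 of the 12 pairs; *Clock* with *Npas2* is left out because its interval is too wide. The 6 *Arntl* pairs lie between 0.0698 and 0.376, and *Dbp* with *Tef* is the only pair plotted above 1.

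The other transcription factors of the clock were examined through a list of 12 genes, of which 10 were tested. With TMM 6 were higher and 2 lower (all genes 26.0% and 27.4%), and with total counts 5 and 2 (all genes 16.0% and 48.7%); their median log2 ratio with TMM was 1.55, beside -0.11 for all genes. *Nr1d2*, for REV-ERB beta, stood at 716 counts against 1694 with TSA and differed by 4.32-fold (3.95 to 4.72), more than its paralog *Nr1d1*. *Rora*, for an activator that competes with the REV-ERB proteins for the same motif, had 142 and 1378 counts, a ratio of 17.7 (14.9 to 21.2). Genes for an activator and for repressors that act on the ROR response element were thus both higher. *Ciart*, for the BMAL1 repressor CHRONO, had 54 and 294 counts, a ratio of 9.94 (7.41 to 13.5), and *Bhlhe40*, for the E-box repressor DEC1, had 970 and 2864 counts, a ratio of 5.39 (5.01 to 5.80). *Hlf*, the remaining PAR bZIP gene, had 924 and 1151 counts and differed by 2.27-fold (2.08 to 2.48) with TMM and 1.26-fold with total counts, less than *Dbp* and *Tef*.

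*Cry2* and *Nfil3* were not called. *Cry2*, the paralog of *Cry1*, stood at 1573 counts against 1190 with TSA, a ratio of 1.38 (1.28 to 1.49) with TMM and 0.765 with total counts. *Nfil3*, for E4BP4, which opposes the PAR bZIP factors at the D-box, had 732 and 639 counts, a ratio of 1.59 (1.43 to 1.77) with TMM and 0.883 with total counts, so its direction and that of *Cry2* change with the scaling. The lower genes were *Timeless*, whose product in mammals also travels with replication forks, at 1414 and 119 counts (6.51-fold lower, 5.40 to 7.92), and *Arntl2*, for BMAL2, at 24 counts and 1 count (13.2-fold lower, 2.14 to 541). *Bhlhe41* had 9 and 5 counts and *Rorb* 1 and 0, too few to be tested.

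Genes whose products modify clock proteins were examined next. Of 15 kinase and ubiquitin genes TMM called 3 higher and 2 lower, beside 26.0% and 27.4% of all genes, and total counts 1 higher and 7 lower, beside 16.0% and 48.7%; the median log2 ratio with TMM was -0.11, the same as that of all genes. The casein kinase gene *Csnk1a1* was at 1.08-fold (1.02 to 1.14) and *Skp1a*, for a subunit of the ubiquitin ligases that degrade PER and CRY proteins, at 0.93-fold (0.884 to 0.978) of the level without treatment. The genes for the catalytic subunits of AMP-activated kinase, which marks CRY proteins for degradation, went apart: *Prkaa2* had 891 and 1934 counts (3.96-fold higher, 3.66 to 4.29) and *Prkaa1* 1935 and 335 counts (3.16-fold lower, 2.82 to 3.56). Of 13 chromatin partners of clock factors 0 were higher and 6 lower with TMM (all genes 26.0% and 27.4%), and 0 higher and 12 lower with total counts (all genes 16.0% and 48.7%), with a median log2 ratio of -0.90. *Nono* and *Sfpq*, for RNA-binding proteins found with PER complexes, were 2.59-fold (2.46 to 2.73) and 3.59-fold (3.38 to 3.82) lower, and *Ezh2*, for the Polycomb methyltransferase, 6.27-fold (5.06 to 7.85) lower.

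Of 21 rhythmic output genes of the liver 16 were higher and 2 lower with TMM, beside 26.0% and 27.4% of all genes, and 13 higher and 4 lower with total counts, beside 16.0% and 48.7%, with a median log2 ratio of 3.86. Among them were *Por*, for the reductase that feeds electrons to cytochromes P450, with 2060 counts without treatment and 16436 with TSA (14.6-fold, 13.9 to 15.3). *Cyp2a5*, a P450 gene that PAR bZIP factors activate, had 97 and 26013 counts (489-fold, 401 to 604), with reads that may be split with its close copy *Cyp2a4*. *Upp2*, for a uridine phosphorylase, had 65 and 9832 counts (276-fold, 216 to 358). These ratios are above those of *Dbp* and *Tef*. Hepatocyte markers were 18.2-fold higher in sum, in which *Alb* held 1426219 of the 2627074 TSA counts. The part of either in the ratios of the output genes was not tested. The 2 genes lower with TMM were *Cdkn1a*, for the cell cycle inhibitor p21 that REV-ERB alpha represses, and *Leo1*, named after their values were seen, at 3.23-fold and 2.72-fold lower. *Wee1*, for a mitotic kinase under E-box control, also named after its value was seen, was at 0.763-fold (0.692 to 0.841) with TMM, below *Per1*, *Per2* and *Dbp*.

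Glucocorticoids and temperature, which can reset the liver clock, were covered by 2 further lists. Of 10 genes that glucocorticoids induce, a list that holds *Per1*, TMM called 7 higher and 0 lower (all genes 26.0% and 27.4%), and total counts called 5 higher and 1 lower (all genes 16.0% and 48.7%), with a median log2 ratio of 1.85. *Tat*, for tyrosine aminotransferase, also a hepatocyte marker, went from 100 to 61839 counts, *Dusp1*, for a MAP kinase phosphatase, from 227 to 2726 counts (21.9-fold, 19.1 to 25.2), and *Mt1*, for metallothionein, was at 2.12-fold (2.04 to 2.21). *Fkbp5*, a widely used glucocorticoid target named after its value was seen, was at 1.17-fold (1.10 to 1.25) and not called. Also named after their values were seen, *Tsc22d3* and *Sgk1* were at 20.7-fold and 7.26-fold, and *Zbtb16* was at 0.623-fold and not called. The part of glucocorticoids in these values was not tested. Of 9 temperature-responsive genes TMM called 2 higher and 3 lower, and total counts 2 and 5, shares near those of all genes (26.0% and 27.4% with TMM, 16.0% and 48.7% with total counts). The inducible heat shock genes *Hspa1a* (15 and 62 counts) and *Hspa1b* (28 and 168 counts) were 7.54-fold (4.24 to 14.3) and 11.0-fold (7.31 to 17.0) higher, and these near-identical copies may share reads. The chaperone genes *Hspa8* and *Hsp90aa1* stood at 0.691-fold and 0.371-fold.

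**Figure D4:**
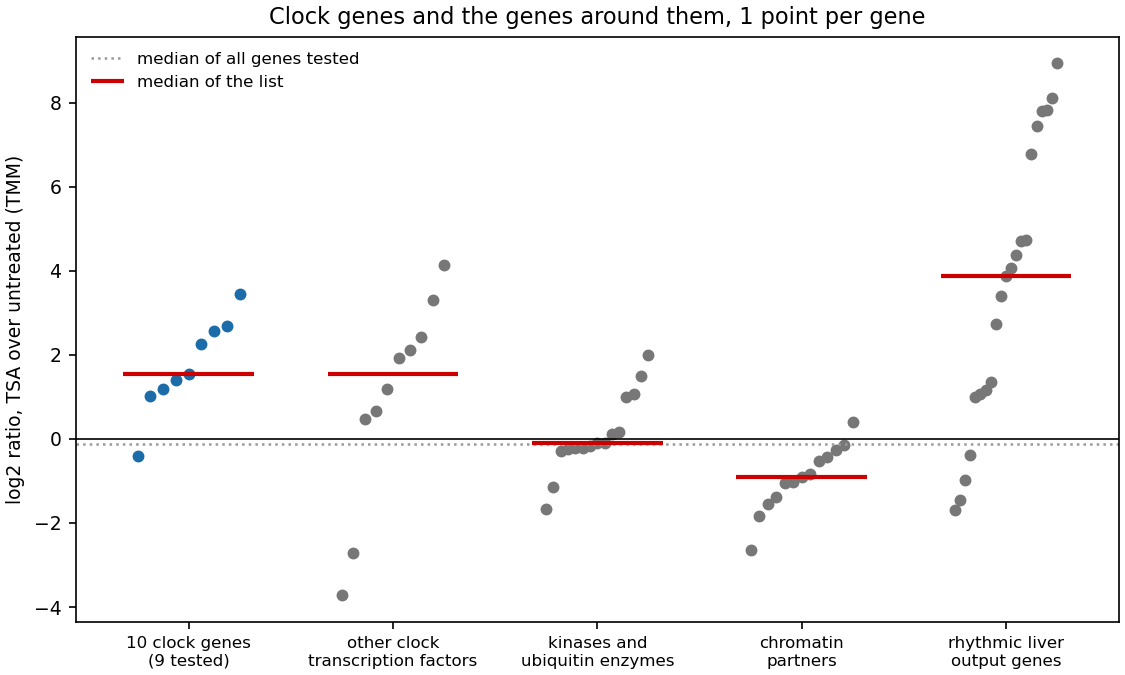
log2 ratio of TSA over untreated with TMM scaling (vertical axis), 1 point per gene tested, for the 10 clock genes (9 tested, blue) and 4 lists of genes around them (grey); red bars are list medians and the dotted line is the median of all genes tested, -0.11. The clock genes and the other clock transcription factors have the same median of 1.55, the kinases and ubiquitin enzymes lie at -0.11 and the rhythmic outputs at 3.86.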

How the data were processed

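Per the file headers, the authors deposited raw counts per gene symbol and FPKM for each of the 2 libraries. The submitters' processing notes name Trimmomatic, HISAT2, Bowtie2 and DESeq without roles; build, annotation, counter and strandedness were not given in the sources used here. Deposited counts were scaled by TMM (edgeR 4.0.16, R 4.3.3), with factors of 1.34 (untreated) and 0.744 (TSA). Each ratio is given with its exact conditional binomial (Clopper-Pearson) 95% interval, and quotients of 2 genes with the exact conditional odds ratio (scipy 1.17.1). Zero counts took a floor of 3 counts. With 1 library per group the intervals hold counting error only. Reads carry no molecular identifiers, so duplicate reads cannot be told from separate molecules, and the intervals may be too narrow. Alternatives were DESeq2 1.42.0 size factors, upper quartile, total counts, housekeeping scaling, the deposited FPKM with 0.1 or 1 added, other thresholds and count minimums, and thinning. Calling was run on simulated data with counting noise alone, few changed genes and scaling by totals. That setting differs from these libraries, so it is no check of the calls given here. The 10 genes and the 22 gene lists were chosen with earlier results of these data known. Marker lists are given as sums, and the single markers named beside them were picked after their values were seen. Genes named by rule are the 10 members, all other clock transcription factors, *Alb* and *Afp*. From each clock list the rule adds the 2 most abundant and the 2 most different among genes with at least 50 counts. A result that this rule selects is not reported here.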

Additional observations from a re-analysis of the deposited data

How the results depend on the processing

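The number of clock genes called higher was 8 with TMM, DESeq2 size factors, upper quartile and housekeeping scaling, and 4 with total counts, with FPKM plus 0.1, with FPKM plus 1 and at a 4-fold threshold. With TMM it was 6 where the whole interval had to lie beyond 2-fold, beside 2772 higher and 2823 lower over all genes. The number lower was 0 except for 1 with total counts and with FPKM plus 0.1. Over all 13027 genes tested 3382 were higher and 3573 lower with TMM. The higher and lower counts were 3460 and 3470 with DESeq2 size factors, 3442 and 3499 with upper quartile, and 2084 and 6339 with total counts. They were 6068 and 1591 with housekeeping scaling, 1983 and 6186 with FPKM plus 0.1, 1518 and 5100 with FPKM plus 1, and 1951 and 1640 at 4-fold. Of the genes called, 48.6% were higher with TMM, 24.7% with total counts and 79.2% with housekeeping scaling. For kinases and ubiquitin enzymes 1 was higher and 7 lower with total counts, and 6 and 0 with housekeeping scaling. For chromatin partners 12 were lower with total counts, and 1 was higher and 1 lower with housekeeping scaling. Of the rhythmic outputs 4 were lower with total counts and 0 with housekeeping scaling. Beside these list counts stand 16.0% of all genes higher and 48.7% lower with total counts. With housekeeping scaling the shares of all genes were 46.6% and 12.2%. These alternatives change only the scale, the added constant or the threshold. Quotients of 2 genes were recomputed with FPKM plus 0.1 and with thinned counts. By construction these leave quotients of well-counted genes nearly as they were and say nothing of their stability. The change in the quotient of *Clock* to *Npas2* went from 0.370 to 0.790 with FPKM plus 0.1. Both *Npas2* values, 0.0259 and 0.0785 FPKM, lie below that constant. No paired analysis was possible because each group holds 1 library, and no library could be left out. Depth limits *Npas2*, *Rorb* and *Bhlhe41*, whose counts are too few to show a difference.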
